A study of Mus musculus with 9 samples.

Results

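The genes of cholesterol synthesis, of its control and of sterol transport were followed through 9 mouse RNA-seq libraries. The 27 members were the rows of the deposited count table whose symbol was on a fixed list, out of 16231 genes, and 27 of 27 passed the low-count filter that left 12747 genes for testing. They were 8 genes of the mevalonate steps, 11 of the squalene and sterol steps, 4 regulators and 4 genes of uptake and intracellular transport. The list is not the whole pathway, and other genes of it are not reported here. The libraries form 3 groups of 3, which the labels name YOUNG, AGED and EGCG: retina of young mice, of old control mice, and of old mice under treatment, the EGCG group. EGCG is epigallocatechin gallate, a catechin of green tea. The sources used here state no strain, sex, age, dose, route or duration, and no allele or agent common to all groups. Nor do they tie each library to an animal of its own, so p-values reflect only the spread of 3 libraries per group, part or all of which may be technical.

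Library totals ran from 34240500 to 39922044 counts, and the common biological coefficient of variation was 5.37%. The label retina was set against marker genes. Sag, the arrestin of rods, had 15 counts over the 9 libraries together, Pde6b 1, Cnga1 1 and Best1, of the retinal pigment epithelium, 4. Gnat1, the rod transducin gene, and Rom1 had more, 4542 and 518 counts. On the marker list of other retinal cells, which holds Best1, Glul had 423687 counts and Rbpms 12434, while Pou4f1 had 16. Alb, serum albumin, stood at 84807 CPM in young libraries, 81972 in aged and 87653 in EGCG-treated ones. Most photoreceptor markers in the table were thus near 0 where hepatocyte markers were abundant, and no cell type is assumed for the members in what follows. In such bulk samples fewer cells of a type and less RNA per cell cannot be told apart.

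Cholesterol is built from acetyl-CoA. The mevalonate steps make isoprenoid units and join them to farnesyl diphosphate, squalene synthase joins a pair of these and so commits them to sterols, and a series of enzymes in the endoplasmic reticulum turns lanosterol into cholesterol. The transcription factor SREBP-2, encoded by Srebf2, drives most of these genes. SCAP escorts it out of the endoplasmic reticulum when sterols are scarce, and the INSIG proteins hold SCAP back when sterols are plentiful. Insig1 is itself an SREBP target, so its transcript is commonly read as a gauge of the pathway. Liver is a major site of the pathway, and the retina both makes cholesterol and takes it up.

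SREBPs bind with NF-Y, which recognises the CCAAT box, and with Sp1, which recognises the GC box, so the 250 bases before the most upstream listed start of each gene were searched on both strands. RefSeq promoters on GRCm38.p6 were held for 22 of the 27 members. CCAAT (or ATTGG) occurred in 18 of these 22, or 81.8%, against 34.5% of 27025 genes with a promoter of the same length and 36.8% of the 10201 that were tested here. Acat2, Aacs, Dhcr7 and Scap lacked it. GGGCGG (or CCGCCC) also occurred in 18 of 22, against 33% of all genes and 57.7% of the tested ones. TCACNCCAC (or GTGGNGTGA), 1 form of the sterol regulatory element, occurred in Hmgcs1 alone of the 22, against 1.03% of all genes. GGGCGG may overlap the other motifs in this search. A match is only a run of letters, and no match says only that these letters are not in this window.

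Promoters of 4 members are shown because these genes mark the range of behaviour described below: Hmgcs1 and Insig1, with the largest increases with age, Insig2, which moved against Insig1, and Mvd, which rose in both steps. Each stretch starts 250 bases before the listed start site and reads 5′ to 3′ on the gene's strand. The last base printed lies 1 base before that start in Hmgcs1 and Mvd, 50 in Insig1 and 74 in Insig2. For Insig1 this is the last base before the GENCODE M21 gene, while for Insig2 the GENCODE M21 gene begins only at the listed start. Capitals mark CCAAT boxes on either strand and, in Hmgcs1, the sterol regulatory element. The positions are chr13:119690101-119690350 (plus strand) for Hmgcs1, chr5:28071162-28071362 (plus) for Insig1, chr1:121332663-121332839 (minus) for Insig2 and chr8:122443423-122443672 (minus) for Mvd.
Hmgcs1: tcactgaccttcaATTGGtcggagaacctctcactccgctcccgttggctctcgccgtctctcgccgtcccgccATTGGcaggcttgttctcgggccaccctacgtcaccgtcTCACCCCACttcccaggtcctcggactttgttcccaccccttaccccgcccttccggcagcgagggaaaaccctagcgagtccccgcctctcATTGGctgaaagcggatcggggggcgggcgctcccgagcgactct
Insig1: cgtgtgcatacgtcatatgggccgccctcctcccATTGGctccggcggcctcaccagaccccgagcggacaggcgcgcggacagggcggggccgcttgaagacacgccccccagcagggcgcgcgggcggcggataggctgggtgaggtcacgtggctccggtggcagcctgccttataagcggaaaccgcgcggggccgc
Insig2: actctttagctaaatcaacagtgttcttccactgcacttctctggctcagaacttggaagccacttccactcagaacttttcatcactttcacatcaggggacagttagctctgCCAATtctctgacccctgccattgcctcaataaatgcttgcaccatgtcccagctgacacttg
Mvd: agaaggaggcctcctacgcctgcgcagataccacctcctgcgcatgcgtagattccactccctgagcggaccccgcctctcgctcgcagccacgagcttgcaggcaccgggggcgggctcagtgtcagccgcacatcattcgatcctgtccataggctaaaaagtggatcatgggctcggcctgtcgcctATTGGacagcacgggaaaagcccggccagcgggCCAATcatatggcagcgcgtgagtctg
In Hmgcs1 the CCAAT boxes begin 237, 176 and 45 bases before the start and the sterol regulatory element 137 bases before it. The CCAAT boxes lie at 216 bases in Insig1, at 136 in Insig2 with 2 more at 46 and 29 outside the printed stretch, and at 60 and 27 in Mvd. Insig2 had no GC box in its 250 bases where Insig1 had 3.

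Levels are given as CPM, the share of a gene in the library total after TMM scaling, and changes as log2 fold changes with the standard error (SE) of edgeR's quasi-likelihood fit. A gene is said to have risen or fallen where its Benjamini-Hochberg adjusted p over the 12747 genes was below 0.05. The 3 comparisons share libraries, so each is described on its own. Summed over the 27 genes, the level was 2881 to 2896 CPM in young libraries, 5467 to 5528 in aged and 5450 to 5485 in EGCG-treated ones. The aged mean was 1.91 times the young mean, and the EGCG mean 0.993 times the aged mean. The total was thus nearly alike in the aged groups, while single genes under it differed widely, as the plot of levels by gene shows.

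**Figure D1:**
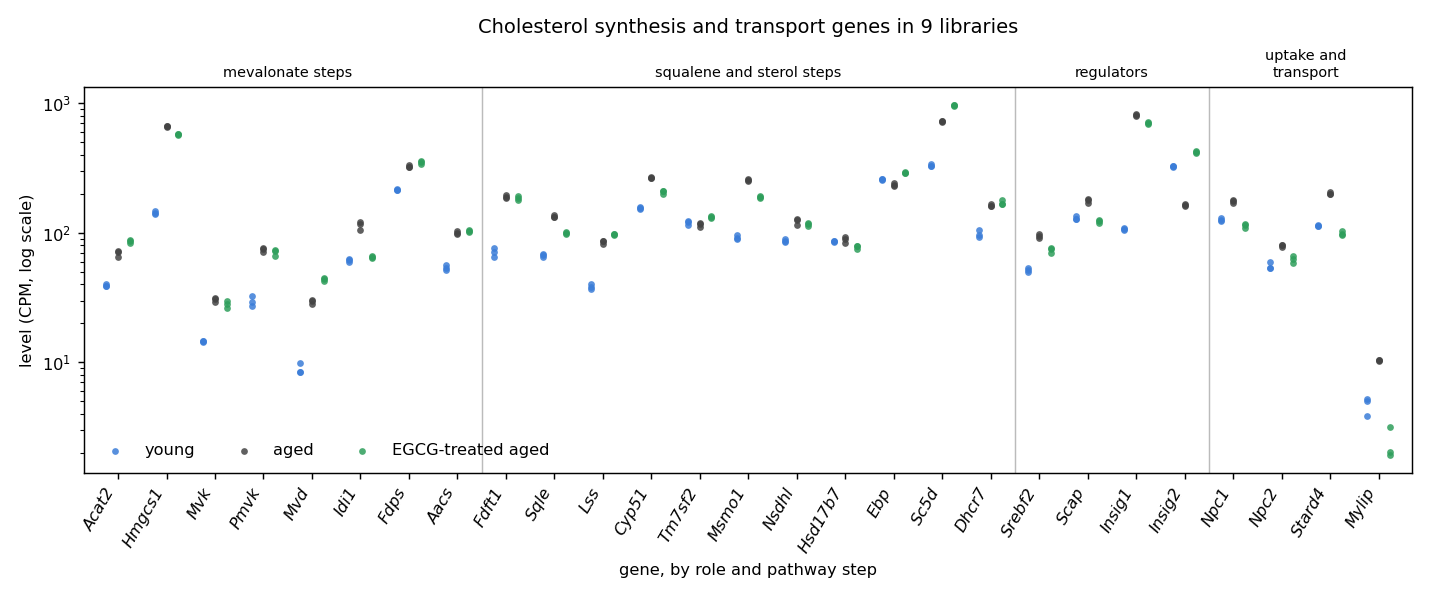
Level of each of the 27 genes in CPM (log scale) in each library, 1 point per library, by role and pathway step; blue is young, grey aged and green EGCG-treated aged. Insig1 stands at 105 to 110 in the young against 694 to 827 in the other libraries, and Insig2 is lowest in the aged libraries.

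With age, 23 of the 27 members rose and 2 fell, where 33.4% of all tested genes rose and 36.1% fell (69.5% in either direction). The members' median log2 fold change was 0.87, against -0.01 over all genes. In EGCG-treated against untreated aged libraries 9 members rose and 13 fell, where 31.8% of all genes rose and 31.5% fell (63.3% in either direction), and the median was -0.13 against 0.01. In EGCG-treated aged against young libraries 21 members rose and 5 fell, where 30.8% of all genes rose and 32.1% fell (62.9% in either direction), and the median was 0.59 against 0.02.

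These splits lean on the scaling. The young libraries had TMM factors of 0.911 to 0.92 and the others 1.03 to 1.06, and without such factors the median of all genes moved to 0.18 with age and to 0.20 for EGCG-treated against young. The share of higher genes among those called went from 48.1 to 67.3% and from 49 to 66.8%, and the members' split became 26 higher and 1 lower, and 23 higher and 1 lower. Relative to the median of all genes the members' median was 0.89 with age in either case, and 0.57 for EGCG-treated against young in either case.

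**Figure D2:**
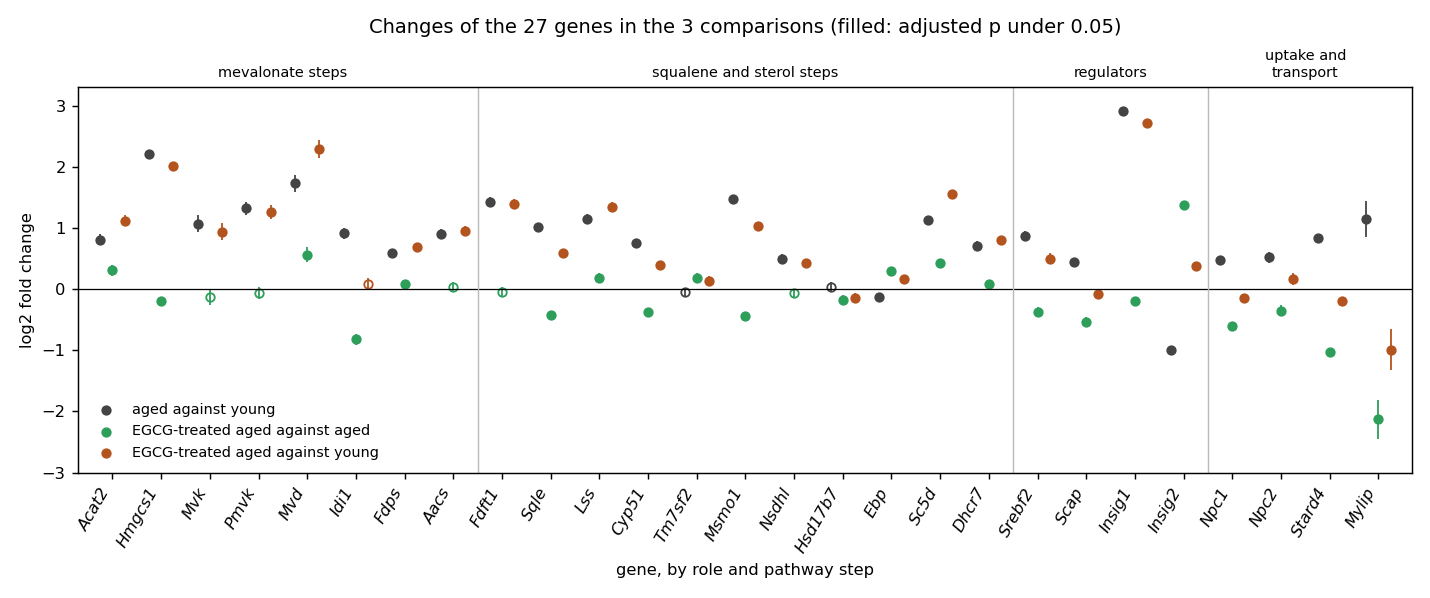
Log2 fold change of each gene in the 3 comparisons, with bars for the 95% interval; filled points have an adjusted p under 0.05 and open points do not. Grey points (aged against young) lie above 0 for most genes, while green points (EGCG-treated against untreated aged) scatter around 0 for the enzymes and lie below 0 for the 4 genes of uptake and transport.

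All 8 genes of the mevalonate steps were higher in the aged than in the young libraries, beside 33.4% of all tested genes. Their changes were 0.59 to 2.21, with a median of 0.99. Their summed level rose from 562 to 573 CPM in the young to 1408 to 1412 in the aged, and was 1325 to 1327 in the EGCG-treated libraries. Hmgcs1, cytosolic HMG-CoA synthase, which condenses acetoacetyl-CoA with acetyl-CoA, had the largest log2 fold change of them with age. It stood at 143, 139 and 148 CPM in young libraries, 657, 667 and 667 in aged and 583, 572 and 584 in EGCG-treated ones. The groups did not overlap, with the young far below both others. The change with age was 2.21 (SE 0.027, adjusted p = 1.1e-44), and the EGCG-treated libraries were below the aged by a log2 fold change of -0.19 (SE 0.025, adjusted p = 5.5e-09) and above the young by 2.02.

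Mvd, the decarboxylase that makes isopentenyl diphosphate, rose in both steps. It had 8.43, 9.89 and 8.48 CPM in young libraries, 30.5, 30 and 28.4 in aged and 45.1, 43.9 and 42.4 in EGCG-treated ones. Every EGCG-treated library lay above every aged library, and these above every young one. The changes were 1.73 (SE 0.073, adjusted p = 4.4e-24) with age, 0.56 (SE 0.062, adjusted p = 1.5e-10) with EGCG and 2.29 for EGCG-treated against young.

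Idi1, the next enzyme, which isomerises isopentenyl diphosphate, took the opposite course under EGCG. Its levels were 59.8, 62.6 and 61.3 CPM in young libraries, 106, 121 and 118 in aged and 66.3, 65.6 and 64.3 in EGCG-treated ones. The aged libraries stood apart above both other groups, which lay close to each other. It rose by 0.91 with age (SE 0.044, adjusted p = 6.9e-22) and fell by 0.82 with EGCG (SE 0.044, adjusted p = 3e-20). Against the young libraries the EGCG-treated ones differed by 0.09 (95% interval 0.00 to 0.18, adjusted p = 0.07), which passed the test at 0.27 without scaling factors (adjusted p = 1.8e-06) and at 0.26 with upper-quartile factors.

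Of the other 5 mevalonate genes 2 rose with EGCG and 3 were not called, where 31.8% of all tested genes rose and 31.5% fell. Acat2, the cytosolic thiolase that makes acetoacetyl-CoA, rose from 39.5 ± 0.67 CPM (SD, n = 3) in young libraries to 69.2 ± 4 in aged and 85.8 ± 2.5 in EGCG-treated ones, with changes of 0.81 and 0.31. Fdps, farnesyl diphosphate synthase, rose by 0.59 with age and by 0.09 with EGCG (adjusted p = 0.0024). Mvk and Pmvk, which add the phosphates to mevalonate, rose by 1.07 and 1.32 with age. Aacs, which activates acetoacetate for lipid synthesis and stands beside the main route, rose by 0.90. With EGCG none of these last 3 was called: the log2 difference was -0.13 for Mvk (adjusted p = 0.083), -0.06 for Pmvk (95% interval -0.16 to 0.04) and 0.04 for Aacs (-0.03 to 0.12). Mvk passed the test without scaling factors at -0.15 (adjusted p = 0.049), and Aacs with upper-quartile factors at 0.10 (adjusted p = 0.025).

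Of the 11 genes of the squalene and sterol steps, 8 rose with age and 1 fell, beside 33.4% and 36.1% of all genes. Their median change was 0.76. Their summed level went from 1403 to 1410 CPM in young libraries to 2364 to 2394 in aged and 2531 to 2546 in EGCG-treated ones. Against untreated aged libraries 5 were higher and 4 lower under EGCG, beside 31.8% and 31.5% of all genes, and the call of 1 of the 5, Dhcr7, was lost under most other settings. Lower were Sqle, squalene epoxidase, a rate-limiting step of the sterol branch, Cyp51, which removes the first methyl group of lanosterol, Msmo1, which oxidises the following ones, and Hsd17b7, the sterone reductase. Higher were Lss, which closes squalene epoxide into lanosterol, and Tm7sf2, Ebp, Sc5d and Dhcr7.

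Msmo1 stood at 91, 90.1 and 95.5 CPM in young libraries, 253, 257 and 260 in aged and 189, 187 and 193 in EGCG-treated ones. The 3 groups were apart, with the EGCG-treated between the others. The change was 1.48 with age (SE 0.032, adjusted p = 6.2e-35) and -0.44 with EGCG (SE 0.031, adjusted p = 2.3e-16). Sqle and Cyp51 had the same order of groups. Sqle went from 66.8 ± 1.9 to 134 ± 2.7 and 100 ± 1.3 CPM, with changes of 1.01 and -0.42, and Cyp51 from 156 ± 2.4 to 265 ± 2.3 and 206 ± 6.3 CPM, with 0.76 and -0.37.

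Sc5d, the desaturase that introduces the C5 double bond, rose in both steps. It stood at 329, 327 and 338 CPM in young libraries, 725, 713 and 735 in aged and 975, 963 and 974 in EGCG-treated ones. No groups overlapped, and the EGCG-treated were highest. The changes were 1.13 (SE 0.023, adjusted p = 9.9e-36) and 0.42 (SE 0.023, adjusted p = 3.5e-20). Lss rose by 1.15 with age and by 0.19 with EGCG. Dhcr7, the reductase of the last step of its branch, rose by 0.71 with age. Its call under EGCG (0.08, adjusted p = 0.048) was lost under 5 of 8 other settings, and without aged replicate 2, aged replicate 3 or EGCG replicate 2, at adjusted p of 0.14, 0.14 and 0.26.

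Fdft1, squalene synthase, rose from 70.8 ± 5.8 to 191 ± 4.5 CPM with age (1.43) and was at 186 ± 5.8 under EGCG, a change of -0.04 that did not pass (95% interval -0.11 to 0.04) and was 0.02 with upper-quartile factors. Nsdhl, the sterol dehydrogenase that works with Msmo1, rose by 0.49 with age, and its change of -0.07 with EGCG was not called (adjusted p = 0.095). It became a call at -0.11 without aged replicate 1 (adjusted p = 0.014) and at -0.09 without scaling factors (adjusted p = 0.037). Ebp, the sterol isomerase, Tm7sf2, a sterol C14 reductase, and Hsd17b7 did not share the rise with age. Ebp stood at 255, 260 and 260 CPM in young libraries, 242, 235 and 230 in aged and 289, 288 and 293 in EGCG-treated ones. The aged libraries were lowest and the EGCG-treated highest. Its fall with age of -0.13 (adjusted p = 7.2e-05) turned to 0.07 without scaling factors (adjusted p = 0.024), and the rise of 0.30 with EGCG (adjusted p = 1.5e-12) did not depend on that choice. For Tm7sf2 the difference with age was -0.05 (adjusted p = 0.26), which turned to 0.15 without scaling factors (adjusted p = 0.00029), and Tm7sf2 rose by 0.19 with EGCG. For Hsd17b7 it was 0.03 (adjusted p = 0.46), which was called at 0.23 without scaling factors, and Hsd17b7 fell by 0.18 with EGCG (adjusted p = 0.00018).

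Levels between genes were compared per length, as FPKM. Among the 19 enzymes Fdps was highest in every group, at a mean of 136 FPKM in young libraries, 235 in aged and 248 in EGCG-treated ones. In the young libraries Ebp was level with it at 136, and their ranges overlapped. Hmgcs1 stood at rank 8 in the young at 32.5 FPKM, at rank 2 in the aged at 173 and at rank 4 in the EGCG-treated group at 149, where Sc5d had rank 2 at 204. The lowest enzyme was Mvd in the young (4.65 FPKM, with Lss at 5.1 and an overlapping range), Lss in the aged (13) and Hsd17b7 in the EGCG-treated libraries (14.2, with Lss at 14.6 and an overlapping range). The highest exceeded the lowest 29.2 times in the young, 18.1 times in the aged and 17.5 times in the EGCG-treated group. Of 18 pairs of neighbours in this order, 8 overlapped in the young libraries, 4 in aged and 3 in EGCG-treated ones. These FPKM rest on gene lengths implied by the authors' table, 8003 bp for Fdft1 and 6913 bp for Lss, which differ from the 4227 and 10787 exonic bp of GENCODE M21, so neighbouring ranks may change with the annotation.

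Among the regulators the INSIG genes moved against each other. Insig1 lies at chr5:28071363-28078662 and Insig2 at chr1:121304353-121332589 on GRCm38, and both encode proteins of the endoplasmic reticulum that retain SCAP. Insig1 had 108, 105 and 110 CPM in young libraries, 827, 794 and 814 in aged and 720, 694 and 705 in EGCG-treated ones. The young libraries were far below both others, and every EGCG-treated library was below every aged one. It rose by 2.92 with age (SE 0.027, adjusted p = 7.9e-49), a 7.55-fold change that ranked 270 among the 12747 genes by absolute size, and fell by 0.20 with EGCG (SE 0.024, adjusted p = 1.8e-09).

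Insig2 had 321, 328 and 326 CPM in young libraries, 163, 161 and 168 in aged and 413, 423 and 430 in EGCG-treated ones. The aged libraries were lowest and the EGCG-treated highest, with no overlap. It fell by 0.99 with age (SE 0.028, adjusted p = 7.2e-31), rose by 1.37 with EGCG (SE 0.027, adjusted p = 6.4e-36) and was 0.38 above young in the EGCG-treated libraries (adjusted p = 2.6e-16).

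Per length, the balance of Insig1 and Insig2 differed between the groups. The ratio of Insig1 to Insig2 in FPKM was 0.873, 0.827 and 0.876 in young libraries, 13.2, 12.8 and 12.6 in aged and 4.53, 4.26 and 4.26 in EGCG-treated ones. The groups did not overlap, and with 3 libraries against 3 no exact permutation test of such a ratio can go below a two-sided p of 0.1. With the exonic lengths of GENCODE M21, a setting chosen after seeing the data, the mean ratios were 0.371, 5.57 and 1.88, in the same order, so the distance of any group from a ratio of 1 depends on the lengths used. The sum of both genes was 80.5 ± 1.1 FPKM in young libraries, 347 ± 6.5 in aged and 340 ± 5.8 in EGCG-treated ones. With these lengths the aged groups thus differed in the mixture far more than in the sum. The sum was not computed with the GENCODE lengths, and FPKM carries no TMM scaling. The order of the aged groups in the sum, and the size of its rise with age, are therefore uncertain.

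**Figure D3:**
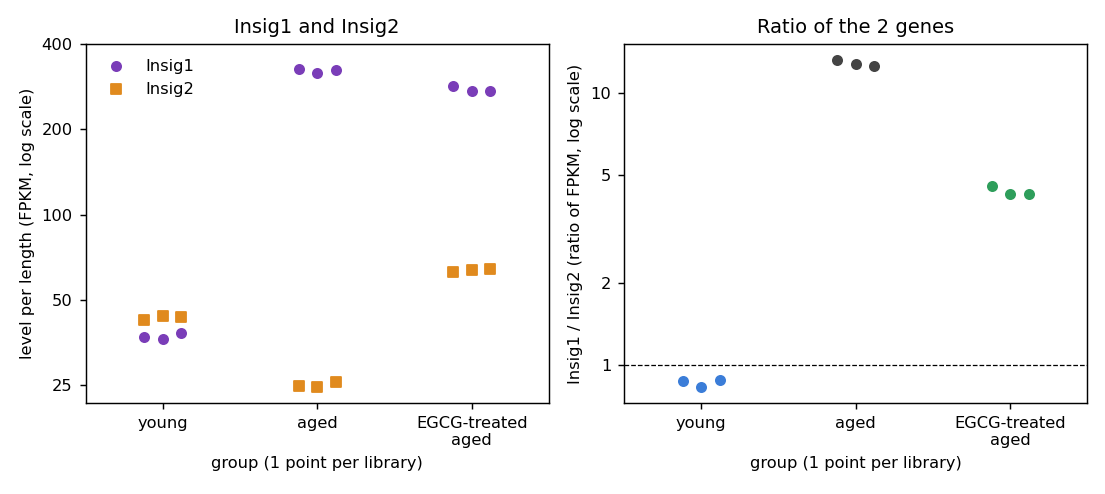
Left, Insig1 (circles) and Insig2 (squares) in FPKM on a log scale, 1 point per library; right, the ratio of both on a log scale with a dashed line at 1. The ratio lies at 0.827 to 0.876 in young libraries, 12.6 to 13.2 in aged and 4.26 to 4.53 in EGCG-treated ones.

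Srebf2 and Scap were higher with age and lower with EGCG. Srebf2 had 53.6, 49.7 and 51.7 CPM in young libraries, 97.2, 91.4 and 95 in aged and 74.4, 69.6 and 75.8 in EGCG-treated ones, changes of 0.87 (SE 0.045, adjusted p = 3.5e-21) and -0.37 (SE 0.043, adjusted p = 6.7e-10). The EGCG-treated libraries lay between the other groups and remained above the young by 0.50. Scap rose from 130 ± 3.9 to 177 ± 6.3 CPM with age (0.44) and stood at 123 ± 2.9 under EGCG (-0.53). Its small difference of -0.08 between EGCG-treated and young (adjusted p = 0.035) turned to 0.10 without scaling factors (adjusted p = 0.017), and was not called without EGCG replicate 3 or young replicate 2 (adjusted p of 0.14 and 0.18).

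The 4 genes of uptake and transport all rose with age and all fell with EGCG. Of all tested genes 33.4% rose with age and 31.5% fell with EGCG. The summed level of the 4 genes was 296 to 303 CPM in young libraries, 462 to 477 in aged and 274 to 282 in EGCG-treated ones. The median change was 0.68 with age and -0.82 with EGCG. Stard4, a soluble carrier that moves cholesterol between membranes, had 114, 113 and 113 CPM in young libraries, 201, 207 and 201 in aged and 96, 103 and 98.5 in EGCG-treated ones. The aged libraries stood alone above the others. It rose by 0.84 (SE 0.034, adjusted p = 5.5e-25) and fell by 1.03 (SE 0.034, adjusted p = 4.5e-28). Against young the change under EGCG was -0.19 (adjusted p = 4.7e-06), a call lost at -0.01 without scaling factors (adjusted p = 0.72).

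Mylip, also called IDOL, encodes a ubiquitin ligase that sends lipoprotein receptors to degradation and is induced by the sterol-sensing nuclear receptors LXR. It had the fewest counts of the 27 genes, with 3.85, 5.04 and 5.21 CPM in young libraries, 10.5, 10.4 and 10.2 in aged and 2.02, 3.15 and 1.92 in EGCG-treated ones. The groups did not overlap and the EGCG-treated were lowest. The change was 1.14 with age (SE 0.15, adjusted p = 6.9e-09), -2.13 with EGCG (SE 0.16, adjusted p = 1.7e-15) and -0.99 for EGCG-treated against young (adjusted p = 2.4e-06), a direction that held under every scaling tried. On the log2(FPKM + 1) scale, which understates changes of low genes, the values were -1.36 with EGCG and -0.43 for EGCG-treated against young. The smallest count behind any member was 69, in this gene.

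Npc1 and Npc2, the lysosomal pair that hands on cholesterol from endocytosed lipoproteins, moved together. Npc1 went from 126 ± 3 to 175 ± 4.6 and 114 ± 4.5 CPM (0.47 with age and -0.61 with EGCG), and Npc2 from 55.4 ± 3.6 to 79.6 ± 1.3 and 62.4 ± 3.6 CPM (0.52 and -0.35). Npc2 was 0.17 above young in the EGCG-treated libraries (adjusted p = 0.0022, with overlapping ranges), and 0.35 above without scaling factors. For Npc1 this change was -0.14 (adjusted p = 0.00046), which turned to 0.03 without scaling factors (adjusted p = 0.4).

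Markers of macrophages, vessels and stroma were likewise highest in the aged libraries. Their counts stand beside 33.4% of all tested genes that rose and 36.1% that fell with age, and 31.8% and 31.5% with EGCG. All 8 macrophage markers rose with age and all 8 fell with EGCG, with a summed level of 96.4 to 98.7 CPM in young libraries, 532 to 537 in aged and 199 to 207 in EGCG-treated ones. Of 6 endothelial markers 5 rose with age and 6 fell with EGCG (68.1 to 70.2, 168 to 182 and 55.9 to 60.7 CPM). All 6 markers of stellate cells and fibroblasts rose with age and fell with EGCG (93.4 to 109, 380 to 388 and 150 to 160 CPM). None of these 20 markers was at 0 in any library. Of 8 hepatocyte markers 7 fell with age and 0 rose, and 5 rose and 2 fell with EGCG, with sums of 119398 to 121503, 110265 to 111271 and 115827 to 119903 CPM. The falls with age lean on the scaling. In FPKM, which carries no TMM scaling, the mean of Alb was 37693 in young and 41834 in aged libraries. Apoa1 went from 9373 to 9806 FPKM and Apob from 463 to 535, while Cyp3a11 went from 2689 to 1750. The part of these markers in the results for uptake, transport and the other members was not tested. The enzymes' sum stood at 1969 to 1978 CPM in young libraries, 3774 to 3806 in aged and 3856 to 3874 in EGCG-treated ones. Both this sum and the macrophage sum were thus higher in aged than in young libraries. With EGCG only the macrophage sum was lower, but the enzymes' sum joins enzymes that rose and enzymes that fell.

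**Figure D4:**
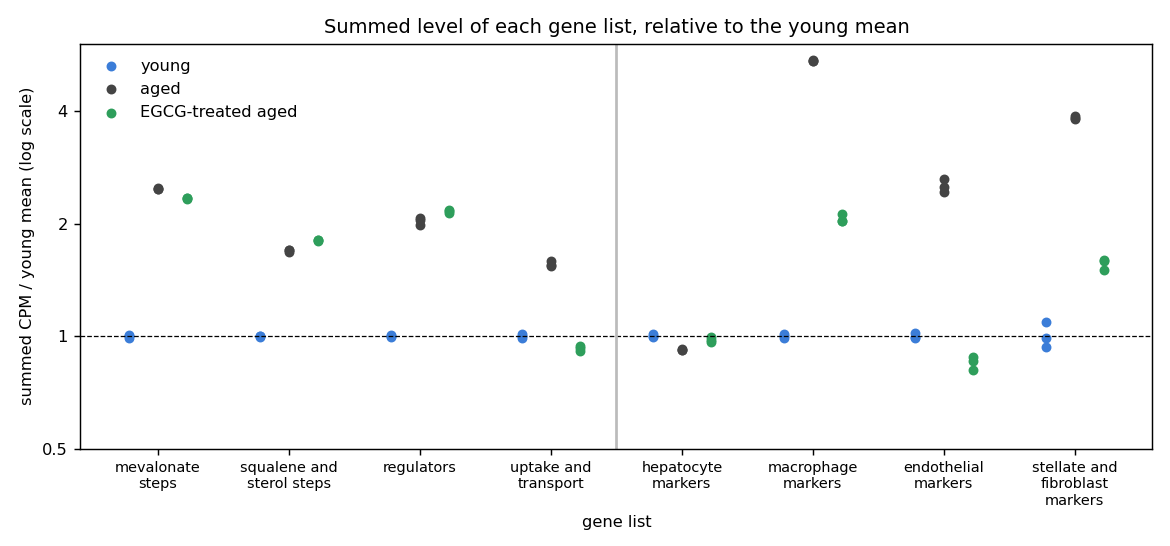
Summed CPM of each gene list in each library divided by the young mean (log scale; dashed line at 1), with the members' 4 groups on the left and cell marker lists on the right. Mevalonate genes, sterol genes and regulators are at 1.69 to 2.48 times the young mean in the aged group and at 1.8 to 2.34 times in the EGCG-treated group, while uptake and transport goes from 1.56 to 0.928 times.

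Lists of other genes around the pathway were counted in the same way. Over all tested genes 33.4% rose and 36.1% fell with age, and 31.8% rose and 31.5% fell with EGCG. The counts and medians of these lists are given under TMM scaling only. Without scaling factors the median of all genes with age went from -0.01 to 0.18, so small falls with age are uncertain. Of 16 genes of SREBP processing and sterol-regulated protein degradation, 2 rose and 10 fell with age (median -0.18), and 6 rose and 4 fell with EGCG (median 0.07). Srebf1, which encodes SREBP-1, the factor of fatty acid synthesis, was among those that rose, at 158 ± 5.6 CPM in young libraries, 346 ± 5.2 in aged and 495 ± 1.6 in EGCG-treated ones (1.13 and 0.52). Srebf1 thus rose under EGCG, where Srebf2 fell. Paqr3, which anchors SCAP at the Golgi, fell by 1.41 with age. Of 16 genes of the isoprenoid branches, which draw on farnesyl diphosphate for prenylated proteins, dolichol and ubiquinone, 3 rose and 8 fell with age (median -0.20), and 5 rose and 2 fell with EGCG (median 0.08). Nus1, a subunit of the enzyme that makes the dolichol backbone, fell from 65.3 ± 1.7 to 39.6 ± 1.8 CPM with age (-0.72).

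Of 20 genes of efflux, storage and trafficking, 10 were higher and 7 lower with age (median 0.14), beside 33.4% and 36.1% of all genes, and 2 were higher and 11 lower with EGCG (median -0.25), beside 31.8% and 31.5%. Abca1, the exporter that loads apolipoprotein A-I, fell in both steps, from 453 ± 5.4 to 246 ± 4.1 and 182 ± 5.8 CPM (-0.88 and -0.44). Abcg1, another exporter, rose with age and fell with EGCG like Mylip but stayed above young, from 1.86 ± 0.31 to 8.46 ± 0.52 and 3.33 ± 0.35 CPM (2.18 and -1.34, and 0.84 against young). Lipa, the lysosomal lipase that frees cholesterol from its esters upstream of Npc2 and Npc1, rose by 0.81 with age and did not pass the test with EGCG (-0.01, adjusted p = 0.82). Lrp1, an endocytic receptor for remnant lipoproteins, rose by 0.23 with age and fell by 0.66 with EGCG.

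The exons of 9 members overlap another gene of GENCODE M21, in 5 of them over more than 10% of their length: Hmgcs1, Fdps, Fdft1, Tm7sf2 and Scap. The overlap is with Ctsb on the opposite strand for Fdft1 (18.3% of exonic bases) and with Gm43738 on the same strand for Fdps (26.7%). Whether the counting used strand is unknown from the labels and headers, so reads of these pairs cannot be told apart and the values of the 5 genes are uncertain to that extent. Reads shared with processed pseudogenes were not examined.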

How the data were processed

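RNA-seq was deposited for 9 libraries labelled retina, 3 in each of 3 groups (young, aged, EGCG-treated aged), taken from the sample titles. Per the labels' protocols RNA was isolated with a column kit of Qiagen and libraries were built with a SMARTER mRNA-seq kit. Per the file headers the authors deposited raw counts and FPKM values per gene symbol. The submitters' processing notes name GRCm38 and mm10, while for aligner, counter, strand and annotation the sources used here state nothing. The deposited FPKM follows from the counts, the column total and 1 length per gene, which came out whole within 0.01 bp for 100% of 16231 genes.

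Counts were tested in edgeR 4.0.16 (R 4.3.3) with TMM factors, filterByExpr (minimum count 10) and a quasi-likelihood fit (glmQLFit, glmQLFTest, two-sided) with 1 mean per group over the 9 libraries. Benjamini-Hochberg adjustment ran over 12747 genes, with a threshold of 0.05. The SE is the log2 fold change over the root of the F statistic, and 95% intervals are 1.96 SE on each side. This normal multiplier is approximate and makes the intervals slightly narrower than the quasi-likelihood test would. Alternatives were upper-quartile or no scaling factors, DESeq2 1.42.0, no filter, limma 3.58.1 on log2(FPKM + 1) or log2(FPKM + 0.1), the groups compared alone, a replicate block, and leaving out each library. The steps were tested on simulated counts in which few genes changed, equally up and down. That test does not cover the choice of scaling where most genes are called. Libraries of 1 group differed beyond sampling noise in every pair (chi-square divided by its degrees of freedom, 3.75 to 4.71).

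Every member is named. Of other lists up to 4 genes with the smallest p per comparison may be named, and of cell markers up to 4 with the most counts, with photoreceptor markers near 0. Faxdc2, of the list of redox partners, was not in the table. Members and lists were chosen with earlier results of these data known. Positions are from GENCODE M21 and promoters from RefSeq, both on GRCm38.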

Additional observations from a re-analysis of the deposited data

How the results depend on the processing

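Of the 81 results for single members (27 genes in 3 comparisons), 68 kept direction and side of the threshold under all 8 other settings and all 9 fits that left out a library. In the other 13 no value under any setting exceeded 0.27 in size, and the cause was not tested. With upper-quartile factors, no factors, and limma on log2(FPKM + 1) and log2(FPKM + 0.1), in that order, these turned: Scap (0.08, 0.10, 0.09, 0.10), Npc1 (0.02, 0.03, 0.03, 0.03) and Hsd17b7 (0.02, 0.03, 0.03, 0.03) for EGCG-treated against young, and Tm7sf2 with age (0.06, 0.15, 0.15, 0.15). Ebp with age turned to 0.07 under the last 3, and Fdft1 with EGCG to 0.02 under the first. In the same 4 settings the members lower were 1 with age and 1 for EGCG-treated against young. The members' median was then 0.98, 1.07, 0.99 and 1.06 with age, and 0.75, 0.76, 0.74 and 0.76 for EGCG-treated against young. With age it was 0.89 in DESeq2 and 0.90 with only the groups compared. Over the fits without 1 library it was 0.84 to 0.87 with age, -0.17 to -0.08 with EGCG and 0.56 to 0.60 for EGCG-treated against young, and 8396 to 8944, 7457 to 8177 and 7606 to 8014 genes were called. The split of all calls with upper-quartile factors was 57.9% higher with age and 65.6% for EGCG-treated against young. Same-numbered libraries did not deviate together (correlations of -0.0443 to 0.0186, and 2, 1 and 0 of 6 libraries matched best with their own number). The labels state no pairing, and with 3 libraries per group this check cannot exclude one. With the replicate block the calls were 8749, 7957 and 7907, against 8857, 8064 and 8014 without it, and the call for Dhcr7 with EGCG was lost (0.08, adjusted p = 0.053). Depth limits Mylip most.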

Other observations

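Of 16 genes of fatty acid synthesis, most of them SREBP-1 targets, 10 rose and 5 fell with age (median 0.15), beside 33.4% and 36.1% of all genes. With EGCG 14 rose and 1 fell (median 0.40), beside 31.8% and 31.5% of all genes. Acss2, which makes acetyl-CoA from acetate, rose by 0.68 with age and by 0.48 with EGCG, and Fasn, fatty acid synthase, rose from 971 to 1257 and 1658 CPM. Thrsp, a regulator of lipogenesis, fell from 1408 ± 15 to 155 ± 5.6 CPM with age (-3.18) and stood at 480 ± 17 CPM in the EGCG-treated libraries (1.63). Me1, malic enzyme, and Acacb, an acetyl-CoA carboxylase, fell with age (-0.90 and -0.97) and rose with EGCG (1.30 and 0.90).

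The hydroxylases that carry cholesterol into bile acids were split. Cyp7a1, the rate-limiting enzyme of bile acid synthesis, rose from 73.1 ± 4.3 to 102 ± 6.5 CPM with age (0.49) and fell to 24.6 ± 0.39 with EGCG (-2.06). Cyp8b1 rose by 0.64 and fell by 0.54, and Cyp7b1 of the alternative route took the reverse course (-0.47 and 0.58). Among redox partners and other genes reported as sterol-regulated, 3 of 8 rose and 5 fell with age (median -0.12), beside 33.4% and 36.1% of all genes. With EGCG 5 of them rose and 2 fell (median 0.18), beside 31.8% and 31.5%. These counts too are given under TMM scaling only, and small falls with age are uncertain. Por, the reductase that passes electrons to Cyp51 and Sqle, fell from 1301 ± 3.1 to 346 ± 2.7 and 210 ± 4.8 CPM (-1.91 and -0.72), against the direction of both enzymes with age. Lpin1, a phosphatidate phosphatase, fell from 563 ± 9.9 to 391 ± 8.7 and 54 ± 2.1 CPM (-0.53 and -2.85).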
